A study of Mus musculus with 249 samples.

Results

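Chromosome 14 was the autosome whose windows were least often found in multiplex-GAM libraries of mouse embryonic stem cells. It is described here through its 3055 windows of 40 kb from position 3000001 of assembly mm9 to the chromosome end at 125194864, out of 68162 windows listed for all chromosomes. The chromosome was picked because of its low detection, so its level against the other autosomes is a description without a test. In genome architecture mapping (GAM), frozen cells are cut into thin slices, slices of nuclei called nuclear profiles are lifted out by laser, and the DNA of a tube is amplified and sequenced. A window is positive in a library when enough reads fall in it, and windows that lie close together in the nucleus tend to be cut into the same profiles. Multiplex-GAM places several profiles from different cells in a tube, 4 according to the sample titles. The series text gives 3 as the average number of nuclear profiles, since a cut cell need not show its nucleus.

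All libraries came from 46C cells, an embryonic stem line of the 129 strain with a Sox1-GFP knock-in, derived from E14tg2a and grown with LIF. The slices were 220 nm thick. The titles divide the libraries into 11 experiments and 20 groups. All experiments but the full collection are named after a step or reagent of the protocol. The full collection, stained with cresyl violet, holds 54 libraries. Reagent volumes were compared as protocol A (n = 10), B (n = 11) and C (n = 10), proteinase K as 1 ul (n = 5) and 2 ul (n = 6) in the titles, and amplification as 20 (n = 4), 23 (n = 5) and 25 PCR cycles (n = 3). Freezing after incubation was tested as frozen (n = 10) against unfrozen (n = 11), early freezing as early (n = 12) against late (n = 11), and kit size as large (n = 11) against small (n = 12). The cresyl violet test held 16 stained and 10 unstained libraries. Titles of the propidium iodide test (n = 20) name both staining and freezing, but do not give the freezing state of a library. The stain tests of propidium iodide, eosin (n = 18) and SYBR Gold (n = 10) are represented by libraries titled unstained. For SYBR Gold, however, the protocol field speaks of stained sections. The protocol field likewise gives smaller volumes of proteinase K than the titles, and the titles were used in both cases. The labels name no batch that crosses experiments, so an experiment and whatever its libraries shared in handling cannot be told apart. The libraries share a cell line, so p-values measure the spread between libraries, which may be technical.

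A mouse autosome has its centromere at its very end, and the assembly starts a few megabases inside it. Sequence beside the centromere of chromosome 14 carries recently duplicated gene families, named mostly with Gm numbers, whose members can share sequence. Farther along lie the T cell receptor alpha and delta locus, clusters of olfactory receptor and ribonuclease genes, the developmental genes Bmp4, Otx2 and Rb1, and long gene-poor stretches that hold protocadherin and glypican genes.

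A few places on the chromosome carry the results below, and a short stretch of mm9 sequence is shown for each, plus strand, 5′ to 3′, with CpG dinucleotides in capitals. The first pair flanks an assembly gap at chr14:20238927-20288926, across which linkage fell further than at any other boundary of the chromosome. These are the 150 bases before the gap (chr14:20238777-20238926) and the 150 bases after it (chr14:20288927-20289076).
Before the gap: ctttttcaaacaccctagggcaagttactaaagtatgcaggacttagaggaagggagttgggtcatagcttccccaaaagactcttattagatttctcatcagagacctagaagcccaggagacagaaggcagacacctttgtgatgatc
After the gap: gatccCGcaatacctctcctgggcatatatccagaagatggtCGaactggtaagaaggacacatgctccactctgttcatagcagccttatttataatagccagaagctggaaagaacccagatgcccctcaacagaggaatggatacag
The next is the centre of the longest stretch that no library detected although the assembly has no gap there (chr14:26899926-26900075).
Never detected: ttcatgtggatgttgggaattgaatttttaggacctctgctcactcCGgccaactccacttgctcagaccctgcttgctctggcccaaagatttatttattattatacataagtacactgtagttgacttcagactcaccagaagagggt
The last are the centres of the windows found in the most libraries (chr14:7819926-7820075) and, among windows found in at least 25 libraries, in the fewest (chr14:4099926-4100075).
Most detected: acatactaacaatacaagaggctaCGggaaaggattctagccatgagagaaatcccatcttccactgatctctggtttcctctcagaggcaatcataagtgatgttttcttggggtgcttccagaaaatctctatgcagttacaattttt
Least detected: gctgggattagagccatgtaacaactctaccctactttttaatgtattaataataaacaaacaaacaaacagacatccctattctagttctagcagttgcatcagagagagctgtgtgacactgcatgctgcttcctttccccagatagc

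Chromosome 14 had on average 17.4% of its windows positive in a library (SD 12.9 over all libraries), and the other 18 autosomes together 20.0%. The mean difference within a library was -2.61 percentage points (SE 0.648). Chromosome 14 lay below the other autosomes in 166 libraries and above them in 83. Chromosome 7 followed at 18.03%, a difference of -1.92 points, and chromosome 11 stood at the other end with 22.4%. Once GC content was matched between the chromosomes, the difference was -2.49 points, and with chromosome 14 alone taken from 10 Mb on, without the duplicated sequence beside the centromere, it was -2.17 points. With every autosome taken from 10 Mb on it was -2.15 points. Among windows found in at least 25 libraries it was -2.20 points. No other autosome had a lower difference in any of the last 3 sets, where the first of them sets the shortened chromosome 14 beside whole autosomes.

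The libraries differed widely. The lowest 10% had at most 2.89% of chromosome 14 windows positive, the median was 15.1%, and the highest 10% had at least 33.6%. The lowest library, replicate 19 of the full collection, had 4 positive windows on the chromosome, or 0.131%, beside 11.3% on the other autosomes. In 14 libraries the share was under 1%, and no library had none. The highest library, replicate 2 of the 25-cycle group, had 2562 positive windows, or 83.9%, beside 26.97% on the other autosomes, and its longest uninterrupted run was 5.12 Mb. The next highest, replicate 5 of the early-frozen group, had 54.9%. The median library held 177 runs of positive windows on the chromosome and a longest run of 680 kb, and the medians of the longest run on the other autosomes spanned 640 to 920 kb.

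**Figure D1:**
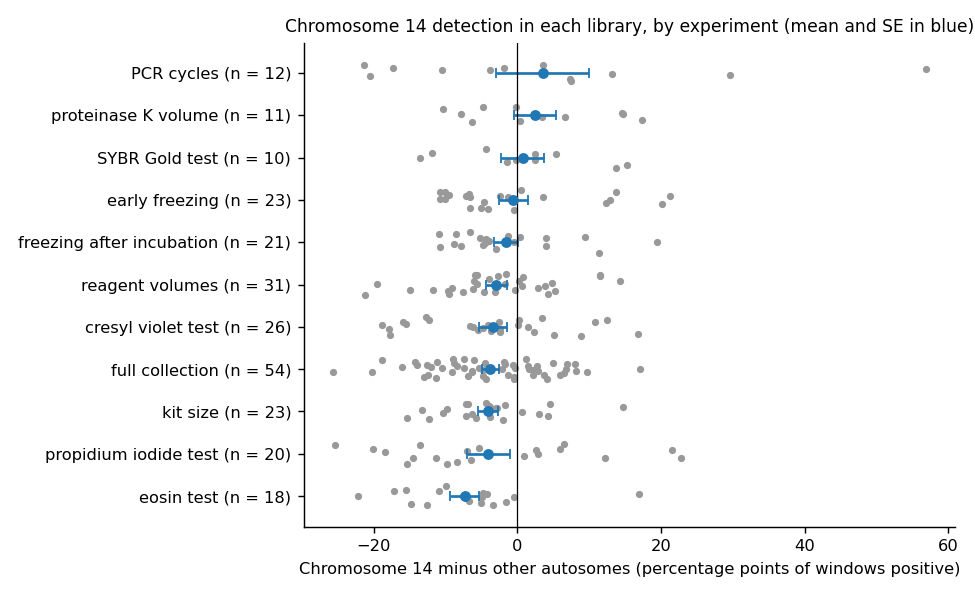
Percentage points of windows positive on chromosome 14 minus the other autosomes (x axis) in each library (grey points) of the 11 experiments, with the mean and its SE in blue. Experiment means run from -7.31 in the eosin test to 3.58 in the PCR cycle test, where replicate 2 of the 25-cycle group lies at 56.9 and the mean without it is -1.27.

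The experiment means differed by less than the libraries within an experiment. Chromosome 14 lay 7.31 points below the other autosomes in the eosin test (mean -7.31, SE 1.98, n = 18), where 17 of 18 libraries were below 0. It lay at -3.75 points (SE 1.15, n = 54) in the full collection, at -4.01 points (SE 1.38, n = 23) in the kit size test and at -4.01 points (SE 2.96, n = 20) in the propidium iodide test. Means above 0 were found in the SYBR Gold test (0.796 points, SE 2.99, n = 10), the proteinase K test (2.53 points, SE 2.93, n = 11) and the PCR cycle test (3.58 points, SE 6.49, n = 12). A single library set the sign or much of the size of these 3 means. Without replicate 2 of the 25-cycle group the PCR cycle mean was -1.27 points, without replicate 6 the SYBR Gold mean was -0.82 points, and without replicate 5 of the 1 ul group the proteinase K mean was 1.05 points. A permutation of libraries over the 11 experiments gave F = 1.52 for chromosome 14 (p = 0.131, adjusted p = 0.357 over 19 autosomes, permutation test with 100000 resamples), and experiments accounted for 6.02% of its variance. Without the library at 83.9%, F was 1.23 (permutation test, adjusted p = 0.502). By the same test 5.26% of the autosomes, chromosome 5 alone, differed between experiments.

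None of 11 contrasts between groups of an experiment passed for chromosome 14, also without adjustment, and over all autosomes 0% of 209 contrasts passed after adjustment while 6 did so without it (two-sided permutation tests of the mean difference). By means, the largest difference in points with more than 5 libraries a group was that between early-frozen (1.96, SD 11.8, n = 12) and late-frozen libraries (-3.22, SD 6.83, n = 11), which was 5.18 points (permutation p = 0.220, adjusted p = 0.933). Without replicate 6 of the early-frozen group it was 3.42 points, and by medians it was 2.98 points, less in size than protocol A minus B at -3.08 points. Among the PCR cycle groups, 20 cycles (-3.50, SD 12.8, n = 4) lay 12.1 points below 25 cycles (8.63, SD 42.1, n = 3; difference -12.1, exact permutation p = 0.771). That difference rested on the library with 83.9% of the chromosome, and without it 20 cycles lay 11.99 points above the remaining 2 libraries. The large kit (-3.45 points, SD 3.59, n = 11) and the small kit (-4.51 points, SD 8.70, n = 12) overlapped, the former lying between -10.3 and 4.56 points and the latter between -15.3 and 14.7 (permutation p = 0.718).

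Of the 3055 windows, 63 (2.06%) were positive in no library, 100 (3.27%) in 1 to 24 libraries and 2892 (94.7%) in 25 or more. Over the other autosomes these shares were 1.202%, 0.888% and 97.9%. The first included window, which starts at 3000001, was positive in 58 libraries, and the 75 windows before it, which were left out, were positive in none. The median window was positive in 44 libraries on chromosome 14 and in 50 on the other autosomes. Among windows in 25 or more libraries, the lowest 10% lay at 34 or under and the highest 10% at 57 or over, and 9 windows reached 80. Of the windows that were never positive, 2 consisted of gap bases only and 50 held no gap base.

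**Figure D2:**
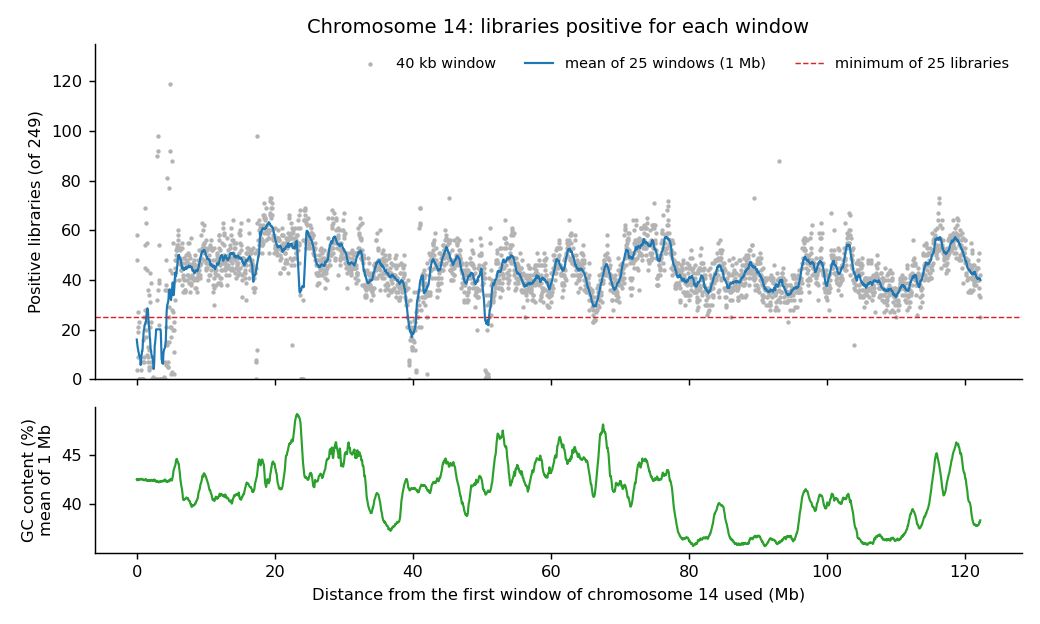
Number of libraries positive for each 40 kb window of chromosome 14 (grey points, upper panel) with the mean of 25 windows in blue and the minimum of 25 libraries as a dashed line, and GC content in the lower panel, by distance from the first window used (Mb). Detection drops at the centromeric end and in short stretches farther along, and single windows rise to 119 libraries.

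Most poorly detected windows lay close to the centromeric end. The first 7 Mb held 175 windows, of which 50 were never positive, 47 were positive in 1 to 24 libraries and 78 in 25 or more. In the megabase from 5 Mb on, 18 of 25 windows were never positive, whereas all 25 windows from 9 Mb on were positive in 25 or more libraries. Runs of at least 5 windows under 25 libraries occurred 12 times on the chromosome, and 7 of them started before 10 Mb. Of the 3 highest windows, 2 lay in the same 7 Mb. The most detected window, chr14:7800001-7840000, overlaps the predicted genes Gm10406 and Gm3739 and was positive in 119 libraries, between a neighbour in 92 and a neighbour in 44. The next, chr14:6040001-6080000 with Gm8237 and Gm3248, was positive in 98 libraries. The window chr14:20400001-20440000 with Gm2237 and Gm5458 was also positive in 98, beside a neighbour in 12, and it is the first well-detected window after the assembly gap at 20.2 Mb. Among windows in 25 or more libraries, 11 stood at exactly 25, and the first of them were chr14:4080001-4120000 (Gm3099), chr14:7600001-7640000 (Gm3636) and chr14:42200001-42240000 (Gm6482). How reads from like copies of a family were placed was not tested.

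A stretch of 360 kb away from the centromeric end was missing from every library. The 9 windows of chr14:26720001-27080000 were positive in 0 libraries, which allows a share of up to 1.205% per window, counting error only. The windows directly beside them were positive in 34 and 32 libraries, and the mean GC content of the stretch was 46.4% with no gap base. It holds Duxbl and Cphx, which encode homeobox proteins, and Plac9, together with copies under Gm names. Farther along, 13 windows at chr14:42560001-43080000 (520 kb) reached at most 23 libraries. Inside the T cell receptor locus, 5 windows at chr14:53440001-53640000 reached at most 4 libraries and 5 windows at chr14:53760001-53960000 at most 2.

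The windows of 3 gene sets, each taken by gene name, are described beside other windows of the chromosome in the same range of GC content. The variable segments of the T cell receptor alpha and delta genes, the pieces joined during T cell development, were represented by 49 annotated genes in 32 windows. These windows were positive in 27.7 libraries on average (SD 16.7 over windows), 2 of them in none and 8 in 1 to 24. The other windows in their range of GC content were positive in 43.96 libraries on average. Among windows in 25 or more libraries the means were 37.8 in the cluster (22 windows) and 47.1 in the others. The 40 olfactory receptor genes, which encode odorant receptors, touched 32 windows positive in 41.6 libraries (SD 5.45), and the others averaged 43.4, or 45.7 when limited to windows in 25 or more libraries. The 30 genes whose names start with Rnase or Ear, or read Ang, were spread between 44396430 and 62991829. A match by name need not mean a like product or a shared cluster. These genes touched 22 windows positive in 39.4 libraries (SD 5.65), and the others averaged 44.8, or 48.5 when so limited. Many windows of a set are neighbours and often cut together, so these SDs are no error of a mean over independent values. The differences were not tested.

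The windows at the start sites of 45 genes chosen by role spanned 33 to 63 libraries, beside a median of 45 over all windows in 25 or more libraries. Of 15 developmental genes, 9 lay above that median, as did 8 of 10 widely expressed genes and 9 of 20 long or neuronal genes, and the medians of the lists were 50, 51.5 and 43.5 libraries. Mean GC content at these start windows was 44.6%, 44.4% and 40.7%, in the same order. Bmpr1a, a receptor of bone morphogenetic proteins, was found in 62 libraries, and Bmp4, a ligand of that pathway, in 44. Rb1, the retinoblastoma tumour suppressor, and Spry2, an inhibitor of receptor tyrosine kinase signalling, were each found in 60. Otx2, a homeobox regulator of early embryos and forebrain, was found in 49, and Zic2 and Zic5, zinc finger genes that share a window, in 51.

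Of the widely expressed genes, Tkt, the transketolase of the pentose phosphate pathway, was found in 63 libraries. Mir17hg, the host gene of a microRNA cluster, and Parp2, a DNA repair enzyme, were each found in 56. Prmt5, an arginine methyltransferase, was found in 42. At the lower end lay Pcdh9, a protocadherin, in 33 libraries, Pcdh17 in 34, Slitrk6 in 34 and Slitrk5 in 35, the latter being neuronal membrane proteins, and the growth factor gene Fgf9 was found in 36. The 14 genes of the long or neuronal list that span at least 10 windows were complete in 0 to 5 libraries, and 6 of them stood at or above the mean of all stretches of the chromosome with the same number of windows. Fhit spans 41 windows and was touched in 142 libraries but had every window positive in 1, where stretches of that length averaged 0.291. Gpc5, a glypican gene of 1432 kb, was touched in 134 libraries and had every window positive in 0. Pcdh9 (120 libraries touched), Nrg3 (123) and Fgf14 (108) likewise were complete in 0 libraries, whereas Ptprg, a receptor phosphatase gene of 689 kb, was complete in 5 of the 127 that touched it, where stretches of its length averaged 1.73.

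Across the 2892 windows in 25 or more libraries, the number of positive libraries rose with GC content (r = 0.37, rho = 0.41). This coefficient ranked 9 among those of the 19 autosomes. The 290 windows of lowest GC content (mean 35.5%) were positive in 38.8 libraries and the 290 of highest (47.8%) in 49.4. Windows of other autosomes in the same 2 ranges of GC content were positive in 44.01 and 55.8 libraries, so that chromosome 14 was lower at both ends. The 1401 windows without an annotated protein-coding gene were positive in 42.5 libraries (SD 7.87). The 1144 with 1 such gene were positive in 47.4 (SD 8.78) and the 347 with more in 48.99 (SD 11.4). The correlation with the number of protein-coding genes was 0.28. With position along the chromosome the correlation was -0.25 among these windows, and 2 of the 19 autosomes had a lower value. Over all 3055 windows, which include the poorly detected ones beside the centromere, it was 0.03 (rho = -0.10). Neighbouring windows are not independent, so these coefficients are descriptions.

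Detection also differed between 5 Mb segments, each compared with the rest of the chromosome in the same library. Of 25 segments, 5 were lower and 4 higher than the rest at an adjusted p under 0.05 (sign-flip permutation over libraries, two-sided, adjusted over 500 segments of all autosomes). Over all autosomes 12.6% of segments were lower and 11.8% higher. The lowest were 3000001-5000000, where 7.39% of windows were positive against 17.5% in the rest (difference -10.1 points, SE 0.716, lower in 221 libraries), and 5000001-10000000 (difference -6.45, SE 0.683, lower in 196). Next came 40000001-45000000 at -4.16 points (SE 0.806, lower in 182), which includes the 520 kb stretch named above. All 3 were lower in the mean of every experiment and had an adjusted p of 0.000294, which rests on the smallest p that 100000 resamples can give. The segments 50000001-55000000 with the T cell receptor locus (-2.70 points, adjusted p = 0.0200) and 110000001-115000000 (-2.78 points, adjusted p = 0.0314) were lower as well. The former lost its call among windows in 25 or more libraries (-2.03 points, permutation test, adjusted p = 0.151). With GC matching alone the latter stood at -0.69 points and its call was lost (permutation test, adjusted p = 0.776).

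The highest segment was 20000001-25000000, where 22.1% of windows were positive against 17.2% in the rest (difference 4.98 points, SE 1.13, adjusted p = 0.000294), higher in 133 libraries and in the mean of 9 of 11 experiments. It was followed by 75000001-80000000 at 4.37 points (SE 1.00, adjusted p = 0.000800), higher in the mean of every experiment, and by 30000001-35000000 at 3.08 points (SE 1.15, adjusted p = 0.0335). The segment 25000001-30000000 passed at 2.66 points (adjusted p = 0.0408). It was higher in the mean of 8 of 11 experiments, but stood at -0.288 points in the full collection. Most libraries lay below the rest for 25000001-30000000 (lower in 127) and for 30000001-35000000 (lower in 131). The calls of these segments thus describe the mean and not most libraries. The call of 30000001-35000000 was lost in every alternative run for it, at 3.18 points without the full collection (adjusted p = 0.0736), 2.26 points among windows in 25 or more libraries (adjusted p = 0.158) and 1.34 points with GC matching alone (adjusted p = 0.608). GC matching alone also ended the call of 25000001-30000000, at 1.31 points (adjusted p = 0.576). The filter on windows in 25 or more libraries removes windows because they are low, so what it does to a low call was partly fixed by its rule. Among windows in 25 or more libraries, 5000001-10000000 stood at 2.14 points above the rest (adjusted p = 0.160), 3000001-5000000 had too few windows to be tested, and 5 of the 9 segments kept their call. When GC content was taken into account as well, 0 of 24 segments passed by the permutation test (7 without adjustment), and 20000001-25000000 stood at 3.81 points (adjusted p = 0.107).

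**Figure D3:**
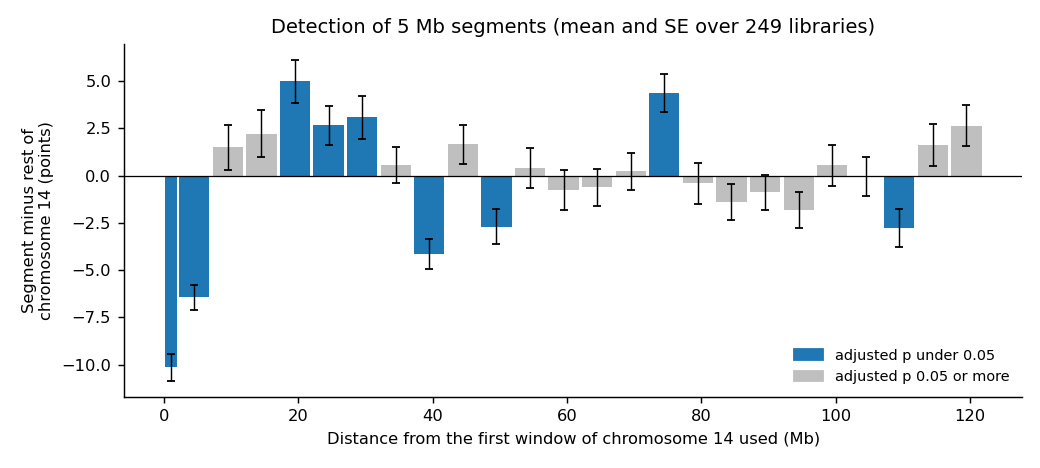
Percentage points of windows positive in each 5 Mb segment of chromosome 14 minus the rest of the chromosome (bars, mean over all libraries; error bars, SE), by distance from the first window used (Mb). Blue bars have an adjusted p under 0.05; the lowest stands at -10.1 and the highest at 4.98.

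Positive windows came in runs, and these were about as tight on chromosome 14 as elsewhere. The correlation of calls within a library was 0.498 at 40 kb (SD 0.157, n = 238 libraries with enough positive windows), 0.350 at 200 kb, 0.193 at 1 Mb and 0.0432 at 5 Mb, and it was -0.0266 at 50 Mb. The other autosomes had 0.511, 0.356, 0.187, 0.0433 and -0.0211 at the same distances. At none of 6 distances did the difference pass, while 22.1% of the tests over all autosomes did (sign-flip permutation, adjusted over 113 tests). Without adjustment 1 distance on chromosome 14 passed, 40 kb, where it was lower by 0.0139 on the correlation scale (difference -0.0139, SE 0.00567, permutation p = 0.0136, adjusted p = 0.0568). With all listed windows the same difference was -0.0173 (adjusted p = 0.00802).

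Whether chromosome 14 was taken up together with particular other chromosomes was read from partial correlations over all libraries, given the remaining 17 autosomes. Of 18 partners, 1 passed, and of all pairs of autosomes 0.585%, the same pair. This was chromosome 10, with r = 0.23 (permutation p = 0.000270, adjusted p = 0.0462) and Spearman's rho = 0.13 (p = 0.0469, adjusted p = 0.234). With experiment means subtracted, r was 0.22 and the call was lost (permutation test, adjusted p = 0.0504). Without the 2 libraries farthest from the median of chromosome 14, r was 0.14, so that the value rested in part on them. Within experiments r ran from -0.07 to 0.69 and was above 0 in 7 of 11. Chromosome 2 came next with r = 0.20 (permutation p = 0.00185, adjusted p = 0.0587; rho = 0.07, p = 0.272, adjusted p = 0.582; 0.12 without the 2 libraries; -0.30 to 0.61 within experiments). The lowest partners were chromosome 8 (r = -0.07, permutation p = 0.281, adjusted p = 0.727; rho = -0.01, p = 0.893; 0.01 without the 2 libraries; -0.64 to 0.22 within experiments) and chromosome 19 (r = -0.05, permutation p = 0.423, adjusted p = 0.738; rho = -0.02, p = 0.766; -0.02 without the 2 libraries; -0.59 to 0.26 within experiments). The median over the 18 partners was 0.06 and over all pairs of autosomes 0.05.

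Linkage between windows was measured as D′, the excess of joint detection over the product of both detection frequencies, divided by its largest possible size, so that 0 stands for independent detection and 1 for the greatest linkage. Only windows in 25 or more libraries were used, and the SE came from 100 draws of libraries with replacement. On chromosome 14, D′ was 0.628 (SE 0.00977) at 40 kb, 0.338 (SE 0.0133) at 1 Mb, 0.202 (SE 0.0174) at 4 Mb and 0.177 (SE 0.0187) at 8 Mb. It was 0.148 (SE 0.0225) at 16 Mb, 0.110 (SE 0.0269) at 48 Mb, 0.0709 (SE 0.0301) at 80 Mb and 0.0687 (SE 0.0444) at the longest distance, nearly the length of the chromosome. Windows of chromosome 14 paired with windows of another autosome had a D′ of 0.0235 (SE 0.0134). The difference from these interchromosomal pairs was 4.05 times its SE at 48 Mb, 3.35 times at 64 Mb and 1.87 times at 80 Mb, and smaller at 96 Mb and beyond.

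Over all libraries the decay lay close to that of the other autosomes. At 40 kb these averaged 0.625, at 1 Mb 0.321 (range 0.296 to 0.341 over 18 autosomes), at 8 Mb 0.151 (range 0.124 to 0.169) and at 48 Mb 0.100. Chromosome 14 ranked 1 at 8 Mb, 2 at 2 and 4 Mb and 3 at 1 Mb, but 5 at 40 kb, 4 at 48 Mb and 13 at 80 Mb. The difference at 8 Mb was 0.0257 with an SE of 0.0167, and at no distance was the difference more than 1.54 times its SE. An expected frequency that allows for the coverage of each library lowered D′ to 0.586 at 40 kb and 0.0497 at 48 Mb, with -0.0705 for interchromosomal pairs. In the full collection alone D′ was 0.0805 at 8 Mb and -0.103 at 48 Mb, beside -0.135 for its interchromosomal pairs. The other autosomes averaged 0.0862 and 0.000912 at these distances in that set, where chromosome 14 ranked 11 and 19. Its high rank at 8 Mb thus did not hold in the full collection.

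**Figure D4:**
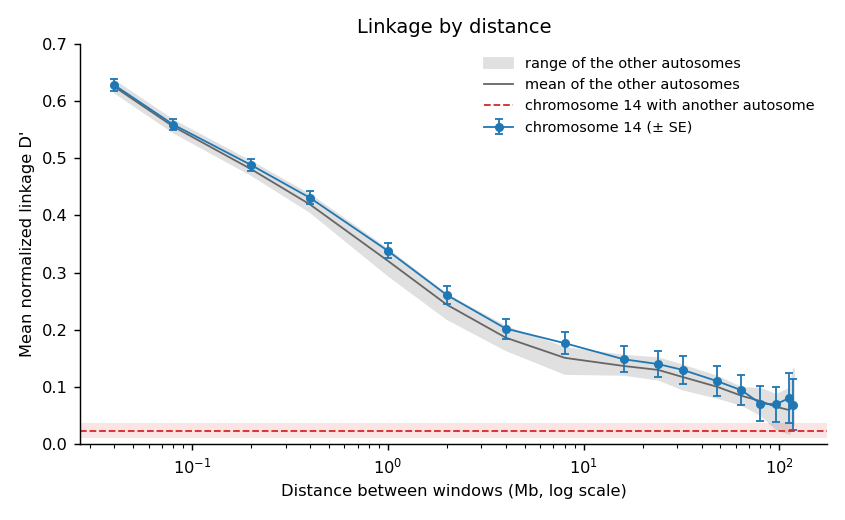
Mean normalized linkage D′ (y axis) by distance between windows (x axis, Mb, log scale) for chromosome 14 (blue, with SE), the mean and range of the other autosomes (grey), and pairs of chromosome 14 with another autosome (dashed, with its SE). Chromosome 14 runs from 0.628 at 40 kb to 0.0687 at the longest distance and lies above the range of the other autosomes at 8 Mb, at 0.177.

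The map of linkage in 1 Mb bins, scaled to the mean and SD of each distance, was barely shared between separate sets of libraries. Over 7129 pairs of bins, the scaled values of the full collection (n = 54) and of the other libraries had a correlation of 0.09. The leading vector of the correlation matrix of this map had the same sign in all 120 usable bins of 123 and so gave no division into blocks. After row and column means were subtracted, a step chosen after seeing that result, the leading vector took 18.7% of the variance. Its values in the full collection and in the other libraries had a correlation of 0.55 over bins, and 87 of 120 bins had the same sign in both. This vector mainly followed the length of the chromosome (r = -0.74 with position), and less so GC content (r = 0.43) and the number of protein-coding genes (r = 0.41).

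The stretches with the same sign in both sets were mostly positive in the first part of the chromosome and negative in the last. Positive ones of at least 3 bins ran from 6 to 14, 15 to 21, 22 to 25, 41 to 56 and 66 to 71 Mb. Negative ones ran from 78 to 96 and 99 to 114 Mb and over the 4 bins that end at 122 Mb. The stretch from 78 to 96 Mb had a mean GC content of 37.7% and 0.216 protein-coding genes per window. That from 41 to 56 Mb, which holds Bmp4, Otx2 and the T cell receptor locus, had 42.2% and 0.957. Read in the libraries that had not made it, the vector of the full collection separated pairs of bins by 0.177 in scaled linkage (same sign minus opposite sign), and the vector of the other libraries by 0.0917 in the full collection. Bins divided only by GC content, above or below the median of 41.7%, gave a difference of 0.00879 (SE 0.0549), which ranked 17 of 19 autosomes, the others lying between -0.0664 and 0.164.

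Among 6095 pairs of bins at least 10 Mb apart, 987 had a scaled linkage over 1 in the full collection and 942 in the other libraries. These shared 203 pairs, or 20.6% of the first list and 21.5% of the second, where 15.5% of all pairs were over 1 in the other libraries and 16.2% in the full collection. Of the 3 highest shared pairs, 2 joined sequence near the centromere with the megabase from 20 Mb on. The bins 7 to 8 Mb and 20 to 21 Mb had a D′ of 0.316 (SE 0.0317), against a mean of 0.162 at that distance, with 0.247 in the full collection and 0.322 in the other libraries. The bins 6 to 7 Mb and 20 to 21 Mb had 0.298 (SE 0.0318), with 0.322 and 0.286. The bins 28 to 29 Mb, which hold part of Erc2, a gene of the presynaptic active zone, and 42 to 43 Mb had 0.305 (SE 0.0417), with 0.188 and 0.323. Of the 25 windows in a bin, only 11 were usable from 7 to 8 Mb, 7 from 6 to 7 Mb and 8 from 42 to 43 Mb.

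Boundaries were sought as minima of D′ between the 400 kb on either side of a window, and 123 were found at a median spacing of 900 kb. Mean D′ across them was 0.383, beside 0.428 over all 2803 positions scored. Windows at boundaries held 0.813 annotated protein-coding genes and those at all positions 0.654, and GC content was 40.97% and 41.07%. Of 128 boundaries in the full collection, 31 (24.2%) lay within 80 kb of one of the 119 found in the other libraries (26.1% of those), and 21.2% of all positions did so. The boundaries of the 2 sets thus coincided little more often than positions in general. After the gap described next, the deepest minima lay at windows 97320001-97360000 and 37840001-37880000, with D′ of 0.253 and 0.262 across them.

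The deepest minimum of the chromosome lay at the assembly gap of 50000 bases at 20.2 Mb, at window 20240001-20280000, where D′ between the flanking 400 kb was 0.182. The last well-detected window before the gap was positive in 45 libraries and the first after it in 98, with 4 windows in between that reached at most 12. The 1 Mb before the gap and the 1 Mb after it had a D′ of 0.161 with each other (SE 0.0431), although within themselves they had 0.494 and 0.475. Blocks of the same size and spacing elsewhere on chromosome 14 averaged 0.328 (SD 0.0415). The 1 Mb before the gap had 0.331 with the block from 18 to 19 Mb, at much the same distance on the other side. Of 56506 such pairs of blocks over all autosomes, 34 were as low or lower, 6 of them here and the rest on 4 other autosomes. The value across the gap was 0.263 in the full collection and 0.144 in the other libraries. It was below that of adjoining blocks before the gap in 10 of 11 experiments, barely so in the reagent volumes test (0.0407 against 0.0526). The PCR cycle test (n = 12) went the other way, at 0.631 against 0.423. Some of these values rest on as few as 10 libraries. The gap and the other low places were found by their low linkage in these same libraries, so this is a description.

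All distances here are those of mm9, and its placement of the sequence on either side of the gap was not tested. The sequence after the gap was linked with windows nearer the centromere more than with those in between. The 1 Mb after the gap had a D′ of 0.333 (SE 0.0352) with 7 to 8 Mb, 0.313 (SE 0.0371) with 6 to 7 Mb and 0.286 (SE 0.0366) with 8 to 9 Mb, where pairs of blocks at those distances averaged 0.157, 0.151 and 0.163. These blocks rest on 11, 7 and 18 usable windows. With the blocks in between it was lower, 0.189 with 10 to 11 Mb, 0.126 with 15 to 16 Mb and 0.171 with 18 to 19 Mb. The linkage with 7 to 8 Mb was 0.333 in the full collection and 0.331 in the other libraries. The 1 Mb before the gap had 0.216 (SE 0.0495) with 7 to 8 Mb and 0.245 (SE 0.0450) with 6 to 7 Mb. Pairs of blocks at those distances averaged 0.163 and 0.159. With 7 to 8 Mb it had -0.00256 in the full collection and 0.235 in the other libraries, and with 6 to 7 Mb 0.185 and 0.243. The 1 Mb before the gap had 0.134 (SE 0.0451) with 22 to 23 Mb, where 0.232 was the average. With 28 to 29 Mb it had 0.254 (SE 0.0382), where the average was 0.175. This last value was 0.102 in the full collection and 0.260 in the other libraries. Of libraries in which at least 50% of the windows before the gap were positive, 15 of 44 (34.1%) also had at least 50% of those after it, and 25 of 44 (56.8%) had at least 50% of the megabase before. Over all libraries these shares were 21.3% and 16.5%. Duplicated sequence and windows under 25 libraries lie at both ends of this long-range linkage, and their part in it was not tested.

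**Figure D5:**
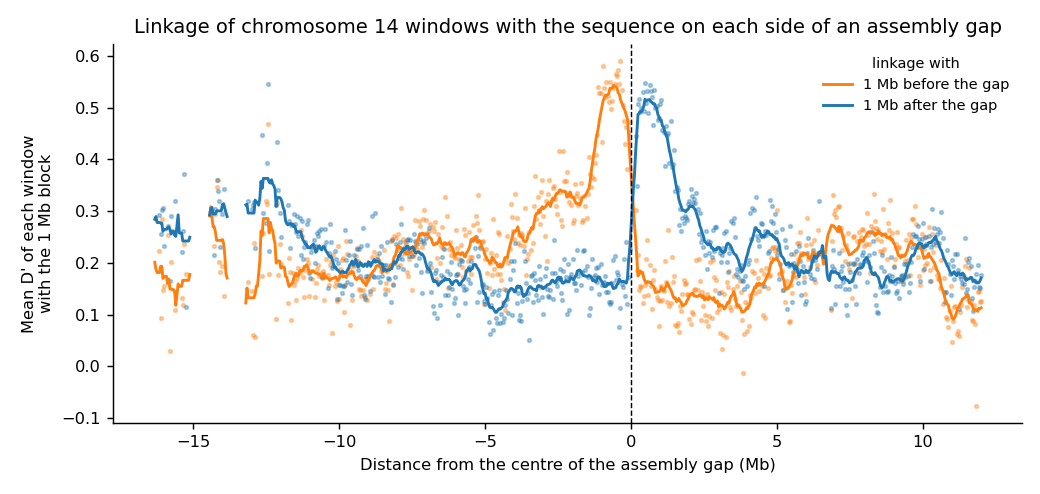
Mean D′ of each chromosome 14 window in 25 or more libraries (points; lines, mean of 13 windows) with the 1 Mb before an assembly gap (orange) and the 1 Mb after it (blue), by distance from the centre of the gap (Mb). Linkage with each side falls at the gap, to 0.161 between the blocks, and that with the 1 Mb after it rises again to 0.333 in the block from 7 to 8 Mb.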

How the data were processed

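DNA of the libraries was measured by multiplex-GAM. Per the methods and the submitters' processing notes, the authors aligned reads to mm9 with Bowtie2 2.1, removed duplicates with Samtools and called windows of 40 kb positive with GAMtools at a fixed read threshold. The deposited table holds 1 or 0 per window and library (positive or not, listed as other values), for libraries that passed quality control only. Read depth is unknown here, a 0 may be absence or too few reads, and no interval needing depth is given. All columns were matched to labels by library name, and 0 of 30876 pairs of libraries were identical.

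GC content, gap bases and genes came from NCBIM37 and GENCODE vM1, whose autosome lengths equal those of the table. Gene numbers per window count protein-coding genes only. Differences were tested within libraries by permutation (100000 resamples, or exact for small groups) with Benjamini-Hochberg adjustment over all autosomes, and D′ received SEs from 100 draws of libraries with replacement. Segments needed 25 windows, and libraries needed 20 positive and 20 negative windows for correlations along the chromosome. Scripts ran in Python 3.11.15 with numpy 2.4.6, pandas 2.3.3 and scipy 1.17.1 and were tested on simulated data.

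The chromosome, its gene lists and the tests were chosen with earlier results of these data known. Named were the 3 most and 3 least detected windows among those in 25 or more libraries, the 3 highest and 3 lowest segments, the 2 highest and 2 lowest partner chromosomes, the 3 highest shared pairs of distant bins, and listed genes. The gap, the missing 360 kb and the other segments were named after their values were seen. Alternatives changed the windows used, GC matching, segment and bin size, the libraries and the expected frequency.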

Additional observations from a re-analysis of the deposited data

Results flagged for a closer look

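A library of the frozen group in the test of freezing after incubation, replicate 7, stood apart from the other 9 libraries of its group. Its chromosome 14 lay 19.5 points above the other autosomes, with 34.4% of windows positive against 14.9%, whereas the group's next highest library lay at 0.426 points. It was the only such library among 9 groups of 4 to 10 libraries, and chance marks about 1 in 20 groups. Without a test, since its group held only 3 libraries, replicate 2 of the 25-cycle group lay at 56.9 points.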

How the results depend on the processing

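No paired analysis was possible because replicate numbers were given in accession order and pair no libraries. Of the alternative values, 93 kept their direction and side of the threshold, or stayed within 1.5 times or the spread where they are counts or carry no test, 9 lost a call, 1 gained it, 12 reversed and 21 moved. A count that stayed within 1.5 times need not hold the same segments: among windows in 25 or more libraries 5 of the 9 segments kept their call. The difference of chromosome 14 from the other autosomes stayed between -3.93 and -2.15 points (both sets from 10 Mb on were chosen after seeing the data), and the test across experiments stayed past no threshold (adjusted p 0.357 to 0.505). Among windows in 25 or more libraries 3 segments were lower, and with GC matching 2 were higher. Segments of 10 Mb gave 3 calls, 2 higher and 1 lower. Windows in 25 or more libraries with GC matching, added after seeing the data, gave 0 calls, 0 higher and 0 lower, and put 5 to 10 Mb at 1.44 points (2.14 without GC matching). Co-sampling calls fell to 0 with Spearman and to 0 with experiment means subtracted. With all windows 1 distance of autocorrelation passed. With at least 100 positive windows the difference at 5 Mb was 0.00106. D′ with a coverage-adjusted expectation was 0.586 at 40 kb, 0.294 at 1 Mb, 0.128 at 8 Mb, 0.0497 at 48 Mb and -0.00852 at 96 Mb. In the full collection alone it was 0.666, 0.0805 at 8 Mb, -0.103 at 48 Mb and -0.0284 at 96 Mb, with -0.135 for its interchromosomal pairs. Windows in at least 40 libraries gave 0.640 at 40 kb. The uncentred leading vectors correlated at -0.12 after coverage adjustment. Squares of 800 kb gave 58 boundaries and a prominence of 1 SD gave 80. Differences of medians, none called, were -2.999 points for protocol A minus C, 3.26 for 1 minus 2 ul, 0.00203 for frozen minus unfrozen, 10.4 for 20 minus 25 and 17.8 for 23 minus 25 cycles, and 0.147 for cresyl violet minus unstained. Leaving out each library gave -5.11 to 1.79 points for proteinase K, -15.6 to -3.78 for 20 minus 23, -26.7 to 11.99 for 20 minus 25 and -17.01 to 21.7 for 23 minus 25 cycles, with no adjusted p under 0.863. Leaving out each library, added after seeing the data, put the experiment mean at -1.27 to 5.84 points for PCR cycles and -0.82 to 2.39 for SYBR Gold, and early minus late freezing at 3.42 to 6.74. The cause of these changes was not tested. Depth is unknown, and groups of 3 to 6 libraries allow little precision.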
